A study of Mus musculus with 29 samples.

Results

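The development of the p27-null mouse ovary before birth was followed in 7 bulk RNA sequencing libraries of the 29 in the series. They comprised 3 libraries at embryonic day 13.5 (E13.5; replicates 1, 3 and 4) and 4 at embryonic day 18.5 (E18.5; replicates 1 to 4), and were chosen by the genotype and age in the sample titles. The labelled genotype was Cdkn1b -/-, a homozygous loss of the gene for p27Kip1, and no other allele or agent is named for any group. The labels give neither the strain nor the part of Cdkn1b that is missing, and p27 is absent from every cell of such an animal rather than from 1 cell type. The 4 wild-type (Cdkn1b +/+) libraries at E13.5 and the 4 at E18.5 served to show where the age change of the null ovary differed. The study asked how control of the cell cycle bears on ovary development. No label says that replicates came from separate animals or litters, so the p-values measure the spread between these libraries, which may be technical.

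p27Kip1 binds cyclin-CDK complexes and holds cells in G1, and its level usually rises as cells leave the cell cycle. In the fetal mouse ovary, germ cells stop dividing by mitosis, switch off genes of the pluripotent state, enter meiosis under retinoic acid and later arrest as oocytes that are enclosed by somatic pregranulosa cells. Mitotic genes are commonly controlled through CHR and CCAAT promoter elements, and DNA replication genes through E2F sites, both under complexes that contain the pocket proteins related to RB.

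Total counts of the 7 null libraries lay between 15.03 and 24.86 M. Levels are given as CPM, counts divided by the TMM-scaled library size, and 3 counts, the least that a library was taken to show, corresponded to 0.121 to 0.200 CPM, which covers counting error only. The germ cell genes Ddx4 (26.2 to 238 CPM) and Dazl (66.3 to 391 CPM) and the gonadal genes Nr5a1, Gata4 and Wt1 (all at least 61.9 CPM) were detected in every null library, and the Leydig cell gene Insl3 did not exceed 0.514 CPM. E13.5 null replicate 3 stood apart from replicates 1 and 4. Its 14 synaptonemal complex genes averaged 5.24 on the log2 CPM scale, against 2.73 in replicate 1 and 3.52 in replicate 4. Among 1593 genes that rose at least 2-fold with age in wild type, replicate 3 was the highest of the 3 null E13.5 libraries for 51.9%, against 16.6% for replicate 1 and 29.7% for replicate 4. Among 1279 genes that fell at least 2-fold there, replicate 3 was the lowest for 36.4%, close to the 31.9% for replicate 1 and 31.7% for replicate 4. Replicate 1 of E13.5 in turn was highest for the 9 mesonephros and duct genes (4.64, against 2.66 and 1.32 in replicates 3 and 4). Values without replicate 3 are given beside the results that it moved most. In whole-ovary RNA, fewer cells of a type and less RNA per cell cannot be told apart.

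The null ovary changed widely in these 5 days of development. Of 16598 genes tested, 5018 were called (edgeR quasi-likelihood test, Benjamini-Hochberg adjusted p under 0.05), which is 30.2%. Of these, 2619 rose (15.8%) and 2399 fell (14.5%), and 1210 of the rises and 867 of the falls were at least 2-fold. The CPM of the age groups did not overlap for 39.9% of the genes. The median log2 fold change over all genes tested was 0.02, so falls and rises below are read against a centre near 0. Counts of list genes in the null ovary are read against the 15.8% that rose and the 14.5% that fell. Without E13.5 replicate 3 the count was 4634. In wild type, 5650 of 16603 genes (34%) were called. Of the 3321 genes called in both genotypes, 3316 changed in the same direction, which is 66.1% of the calls in the null ovary and 58.7% of those in wild type.

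**Figure D1:**
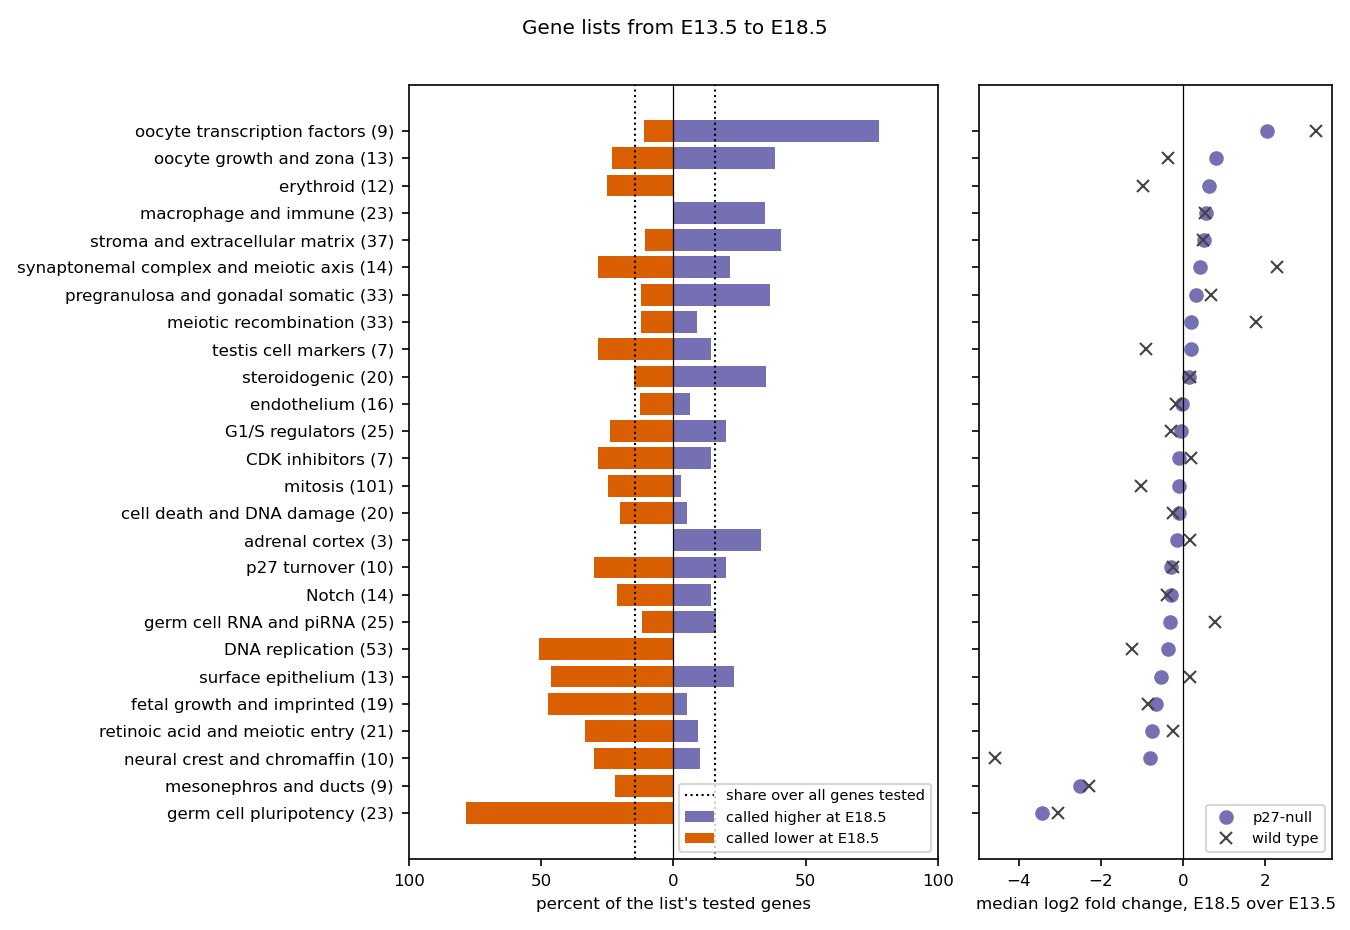
Left, the percentage of each gene list's tested genes (number in brackets) called higher (purple) or lower (orange) at E18.5 than at E13.5 in the p27-null ovary, with dotted lines at the share over all genes tested (15.8% higher, 14.5% lower). Right, the median log2 fold change of each list in the null ovary (circles) and in wild type (crosses). In the null ovary the pluripotency list has the lowest median, and the mitosis and DNA replication lists lie nearer 0 in the null ovary than in wild type.

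Cdkn1b itself was measured first. Its level in the null libraries was 4.63, 5.06 and 4.80 CPM at E13.5 and 10.3, 16.9, 12.5 and 14.8 CPM at E18.5. The residual reads therefore rose with age (log2 fold change 1.50, SE 0.22, edgeR quasi-likelihood adjusted p = 0.0014), and every E18.5 library lay above every E13.5 library. In wild type the gene (chromosome 6, 134920401 to 134925513, plus strand, GRCm38) went from 20.6 to 28.1 CPM up to 100 to 131 CPM (log2 fold change 2.16). All 7 null libraries were below all 8 wild-type ones, as labelled. The difference between the age changes was -0.68 (SE 0.22) and was not called by the interaction test (edgeR adjusted p = 0.30), which does not show that they are equal.

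Cell cycle genes fell only in part before birth in the null ovary. Of 53 DNA replication genes tested, 27 fell, none rose and 26 were not called, with a median log2 fold change of -0.36. Of 101 mitosis genes, 25 fell, 3 rose and 73 were not called, with a median of -0.10. Both lists together had 52 falls among 154 genes, which is above the 14.5% of all genes, and 117 of the 154 estimates lay below 0. In terms of the list medians, the null ovary at E18.5 kept 77.7% of its E13.5 level of the replication genes and 93.1% of that of the mitosis genes. Wild-type ovaries kept 41.9% and 49.5%, and there 51 of the 53 replication genes and 84 of the 101 mitosis genes fell (edgeR, against 17.5% of all genes) with none rising. Without E13.5 replicate 3 the null ovary had 42 falls among the 154 genes.

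Library by library, the mean log2 CPM of the mitosis list ran from 6.03 to 6.16 at E13.5 and from 5.81 to 6.13 at E18.5 in the null ovary, so the ages overlapped. For the DNA replication list the means were 6.75 to 6.99 and 6.39 to 6.66, which did not overlap.

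The named falls in the null ovary include mitotic regulators, polymerase and helicase genes. Ccnb1, the mitotic cyclin B1, measured 396, 387 and 463 CPM at E13.5 and 207, 182, 267 and 231 CPM at E18.5 (log2 fold change -0.90, SE 0.13, edgeR adjusted p = 0.0015). Bub1, a kinase of the spindle checkpoint, went from 105, 163 and 129 CPM to 72.3, 60.9, 75.6 and 63.4 CPM (-0.96, edgeR adjusted p = 0.0017). Both had all 4 late libraries below the 3 early ones. Cenpa, the centromeric histone, fell by 0.88 on the log2 scale, and Ccnf, the F-box protein cyclin F, by 1.01. In replication, Pold1, the catalytic subunit of polymerase delta, fell by 1.06, Rfc4 of the clamp loader by 0.81, Wdhd1, which links helicase and polymerase, by 0.88, and Exo1, a repair exonuclease, by 0.71. The helicase subunits Mcm2, Mcm5, Mcm6 and Mcm7 fell by 0.62, 0.67, 0.44 and 0.60, and their partner Cdc45 by 0.63.

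A larger number of proliferation genes had no call. Top2a, the topoisomerase that untangles chromosomes, measured 372, 440 and 419 CPM at E13.5 and 348, 366, 446 and 377 CPM at E18.5, with the ages overlapping (log2 fold change -0.09, SE 0.11, edgeR adjusted p = 0.56). Plk1, a mitotic kinase, measured 136, 137 and 147 CPM and then 88.9, 98.4, 131 and 122 CPM (-0.34, SE 0.14, edgeR adjusted p = 0.086). Racgap1, needed for the cleavage furrow, measured 149, 147 and 137 CPM and then 137, 134, 170 and 149 CPM (0.03, SE 0.10). Among the others, the estimates were 0.10 for the mitotic kinase Cdk1, 0.01 for Aurkb, -0.08 for Birc5, -0.12 for the sliding clamp Pcna, -0.04 for Rrm2 and -0.01 for Tk1 of nucleotide supply, -0.16 for Cdc6 and -0.24 for Cdt1, the pair that load the replicative helicase, and all missed the threshold, which does not show that they held constant.

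The 3 mitosis genes that rose were Mki67, Smc4 and Cep55, of which Smc4 alone was called with the replicate number as a block. Mki67, the source of the Ki-67 proliferation marker, measured 91.2, 68.6 and 89.2 CPM at E13.5 and 101, 131, 187 and 118 CPM at E18.5, so all late libraries lay above the early ones (0.70, SE 0.21, edgeR adjusted p = 0.036). Its call was lost with that block (edgeR adjusted p = 0.13) and on leaving out any single library other than E18.5 replicate 1 (highest edgeR adjusted p = 0.11). Smc4, a condensin subunit, rose by 0.56 on the log2 scale. Cep55, an abscission protein, rose by 0.34, a call that was lost with the block (edgeR adjusted p = 0.175) and whichever library was left out (highest edgeR adjusted p = 0.113).

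**Figure D2:**
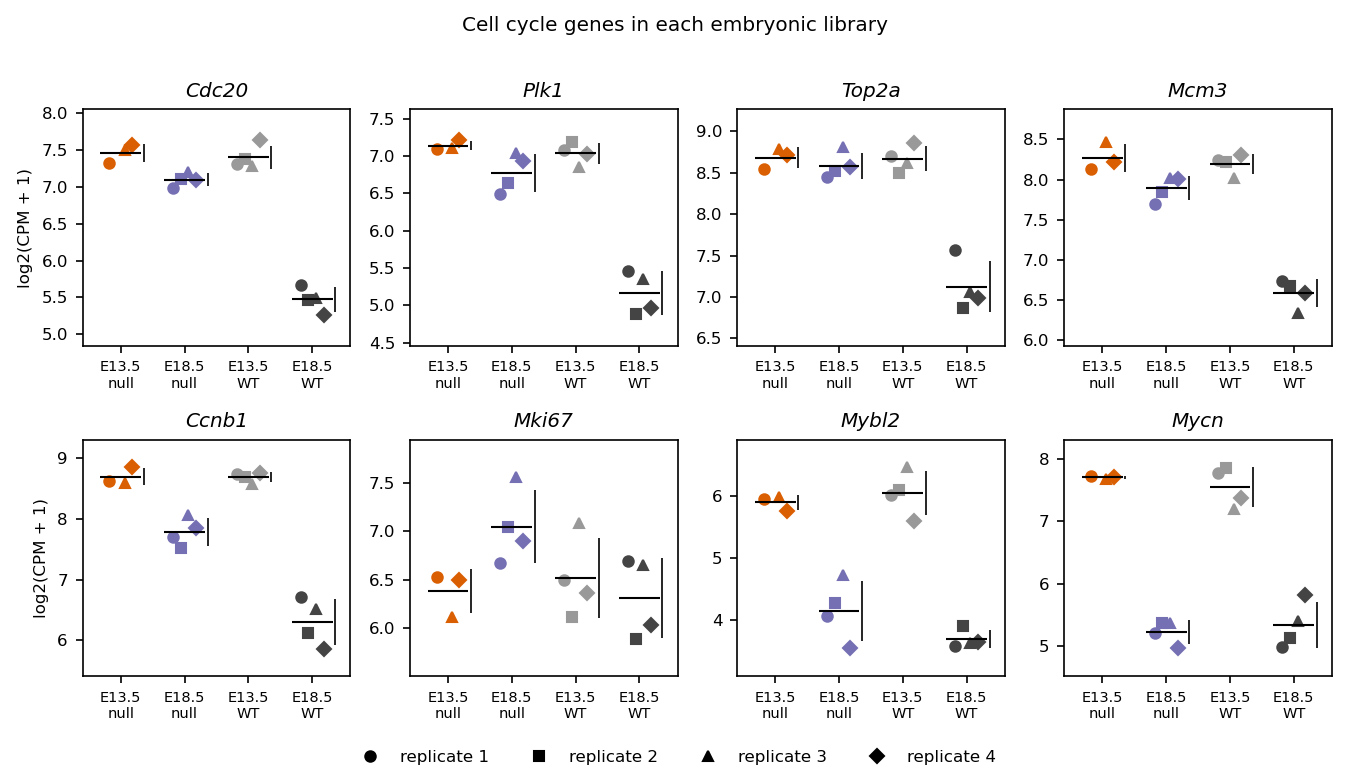
Level of 8 cell cycle genes in each library as log2(CPM + 1), by age and genotype, with symbols for replicate numbers, a horizontal line at the group mean and a vertical line of 1 SD to either side. Top2a overlaps between ages in the null ovary, Cdc20 and Ccnb1 fall less in the null than in wild type, and Mybl2 and Mycn fall in both; the vertical axes do not start at 0.

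Upstream regulators of the cycle split in both directions. Of 25 G1/S regulators, 5 rose and 6 fell, with a median of -0.05. Calls in either direction covered 44% of them, against 30.2% of all genes, of which 15.8% rose and 14.5% fell. Mycn, a growth-promoting transcription factor, measured 211, 205 and 208 CPM at E13.5 and 35.7, 40.2, 40.1 and 30.1 CPM at E18.5 (log2 fold change -2.51, SE 0.12, edgeR adjusted p = 6.02e-06). Mybl2, the B-MYB subunit of the activating MuvB complex, measured 60.8, 62.1 and 52.9 CPM and then 15.8, 18.3, 25.4 and 10.8 CPM (-1.74, SE 0.24). The ages lay far apart for both. Ccnd1, cyclin D1, fell by 1.87, Tfdp1, the partner of E2F factors, by 0.76, and Ccne1, cyclin E1, by 0.81, the last without a call when E13.5 replicate 3 was left out (edgeR adjusted p = 0.0516). On the rising side were the pocket proteins Rbl1 (0.58) and Rbl2 (0.91) and the G1 kinase Cdk6 (1.04). Of 7 CDK inhibitors, Cdkn1b rose and Cdkn1a and Cdkn1c fell by 0.66 and 1.99, and the calls of the last pair were each lost on leaving out any 1 of 4 libraries (E18.5 replicate 2 or 4 and E13.5 replicate 1 or 3 for Cdkn1a, highest edgeR adjusted p = 0.0843, and E18.5 replicate 2 or 3 and E13.5 replicate 1 or 3 for Cdkn1c, 0.0864). Cdkn1c ran from 1566 to 2303 CPM at E13.5 and from 187 to 951 CPM at E18.5. For the 10 genes of p27 turnover the counts were 2 rises (1 with the block) and 3 falls, and Skp2, the ubiquitin ligase subunit that targets p27, went from 110 to 137 CPM down to 55.8 to 77.4 CPM (-0.89, edgeR adjusted p = 0.0013).

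A test of the difference itself was called mainly for cell cycle genes. The genotype-by-age interaction was called for 76 of 18052 genes (0.421%), in 74 of which (0.41%) the null ovary ended higher relative to its E13.5 level than wild type did and in 2 (0.0111%) lower, and 47 of the 76 were in the mitosis (34) or DNA replication (13) list. Every estimate in the replication list, 53 of 53, and 97 of 101 in the mitosis list lay above 0. Estimates on 1 side of 0 were not particular to these lists. All 16 neural crest and chromaffin and all 12 erythroid genes tested for the interaction had estimates above 0. Of the synaptonemal complex genes only 1 of 14 did, and of the recombination genes 4 of 33, and no gene of these further lists was called. Cdc20, the activator of the anaphase-promoting complex, had the smallest p. It measured 159, 180 and 188 CPM at E13.5 and 125, 137, 146 and 136 CPM at E18.5 in the null ovary (-0.36, SE 0.09, edgeR adjusted p = 0.0179). In wild type it measured 158, 165, 155 and 198 CPM and then 50.1, 43.3, 44.1 and 37.4 CPM (-1.95), and the difference of the changes was 1.57 (SE 0.14, edgeR adjusted p = 0.00023). The late null libraries thus lay below their early ones and well above the late wild-type ones. Further differences between the age changes were 1.41 for Racgap1, 1.47 for the spindle midzone protein Prc1, 1.49 for Cdt1, 1.81 for Cdc6, 1.22 for Mcm3 and 1.53 for Plk1.

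For Mycn, Mybl2, Ccnd1, Bub1 and Skp2, which all fell in both genotypes, the interaction was not called. The differences of their age changes were -0.30, 0.73, 0.77, 0.51 and 0.65 (edgeR adjusted p = 0.79, 0.51, 0.77, 0.45 and 0.27), so Mycn alone of the 5 had an estimate below 0. The number of interaction calls depended on single libraries. It was 127 without E18.5 wild-type replicate 1, and it was 39, 47, 33, 36, 37, 48, 42 and 32 without, in turn, E18.5 wild-type replicates 3 and 4, E18.5 null replicates 3 and 4, E13.5 wild-type replicates 1 and 2, and E13.5 null replicates 3 and 4. It was 17 (13 of them mitosis or DNA replication genes) without both E13.5 null replicate 3 and E13.5 wild-type replicate 3. That wild-type library had 18.97% of its counts in haemoglobin genes.

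**Figure D3:**
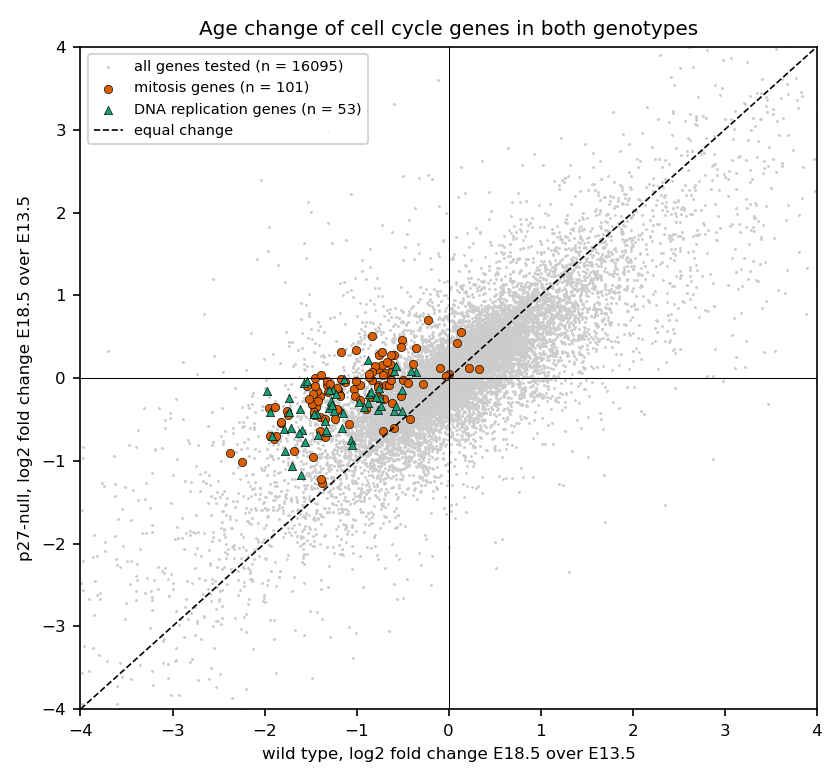
Log2 fold change from E13.5 to E18.5 in the null ovary (vertical) against wild type (horizontal), for 16095 genes tested in both (grey), 101 mitosis genes (orange circles) and 53 DNA replication genes (green triangles), with a dashed line where the changes are equal and genes beyond 4 on either axis left off. Nearly all coloured points lie above the dashed line, between -1.27 and 0.70 in the null ovary and between -2.38 and 0.34 in wild type.

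To show the elements named above, the promoters of 4 of the 12 genes with the smallest interaction p are printed, chosen because they hold them, from RefSeq (GRCm38.p6), as 250 bases before to 50 after the start, 5′ to 3′ on the gene's strand. Capitals mark CCAAT and the CHR letters TTTGAA for the mitosis genes Cdc20 (chr4:118437294-118437593, minus strand) and Racgap1 (chr15:99651607-99651906, minus strand), and the E2F letters TTTCCCGC or TTTGGCGC for the replication genes Cdt1 (chr8:122567765-122568064, plus strand) and Mcm3 (chr1:20820263-20820562, minus strand), on either strand.
Cdc20: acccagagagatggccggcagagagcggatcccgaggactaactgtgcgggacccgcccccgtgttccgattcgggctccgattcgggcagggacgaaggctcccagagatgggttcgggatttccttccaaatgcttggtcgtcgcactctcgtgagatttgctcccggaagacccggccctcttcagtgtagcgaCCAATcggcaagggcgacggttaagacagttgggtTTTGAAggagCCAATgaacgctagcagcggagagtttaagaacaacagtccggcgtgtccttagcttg
Racgap1: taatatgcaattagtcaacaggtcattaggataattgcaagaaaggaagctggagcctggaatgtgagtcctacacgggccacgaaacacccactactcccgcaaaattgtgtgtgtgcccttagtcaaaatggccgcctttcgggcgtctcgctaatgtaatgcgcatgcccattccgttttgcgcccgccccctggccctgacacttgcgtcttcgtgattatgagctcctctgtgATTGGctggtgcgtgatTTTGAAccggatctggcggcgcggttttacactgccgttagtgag
Cdt1: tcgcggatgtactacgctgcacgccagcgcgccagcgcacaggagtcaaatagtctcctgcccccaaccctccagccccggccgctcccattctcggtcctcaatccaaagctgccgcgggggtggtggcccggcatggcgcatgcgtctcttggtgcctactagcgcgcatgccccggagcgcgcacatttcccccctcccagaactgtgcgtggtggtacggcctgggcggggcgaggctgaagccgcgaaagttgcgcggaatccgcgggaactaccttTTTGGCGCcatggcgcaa
Mcm3: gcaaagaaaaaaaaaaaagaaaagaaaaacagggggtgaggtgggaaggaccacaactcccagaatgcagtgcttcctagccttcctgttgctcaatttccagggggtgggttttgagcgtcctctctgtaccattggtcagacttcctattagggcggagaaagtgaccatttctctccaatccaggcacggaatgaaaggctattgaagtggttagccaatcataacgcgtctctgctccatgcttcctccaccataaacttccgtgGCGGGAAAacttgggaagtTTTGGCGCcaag
In Cdc20 the CHR letters begin 18 bases before the start, between a CCAAT that begins at 53 and one at 8 bases before it. In Racgap1 the CHR begins at base 6 after the start. A promoter was matched for 84 of the 101 mitosis genes. A gene was counted if any of its listed promoters held the letters. On either strand TTTGAA was present in 52 of the 84 genes (61.9%), against 20.2% of the 27025 genes with a promoter. Together with CCAAT it was present in 41 (48.8%, against 8.0%). Of 42 replication genes with a promoter, 18 (42.9%) held TTTCCCGC, TTTCGCGC, TTTGCCGC or TTTGGCGC, against 2.6% of all genes with a promoter, and 5 (11.9%) held both TTTGAA and CCAAT. Letters of different elements (CHR, CCAAT and E2F) can share at most 1 end base with one another. These matches describe sequence only.

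Most germ cell pluripotency genes fell in the null ovary. Of 23 genes tested, 18 fell (14.5% of all genes fell), none rose and 5 were not called, with a median log2 fold change of -3.43. Pou5f1, the OCT4 factor, measured 51.6, 61.8 and 81.0 CPM at E13.5 and 0.702, 0.339, 0.309 and 0.462 CPM at E18.5 (-7.11, SE 0.27, edgeR adjusted p = 3.52e-06). Utf1, a chromatin protein of pluripotent cells, measured 57.8, 53.1 and 85.5 CPM and then 0.351, 0.226, 0.567 and 0.308 CPM (-7.46, SE 0.28). Both went from well-detected levels to close to the floor in every library. Sall4 fell by 6.79, Lin28a, which blocks let-7 maturation, by 5.95, Nanog by 3.43 and the germ cell survival factor Nanos3 by 2.00. Tfap2c, a factor of primordial germ cell specification, went from 29.6 to 47.2 CPM down to 0.051 to 0.219 CPM. Dppa3 (STELLA) kept 4.38 to 75.8 CPM at E18.5 and was not called (-2.33, edgeR adjusted p = 0.10), its lowest late library being replicate 1.

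The meiotic genes depended on E13.5 replicate 3. Stra8, the gatekeeper of meiotic entry, measured 2.78, 80.3 and 7.25 CPM in E13.5 replicates 1, 3 and 4, and 0.833, 0.113, 0 and 0.103 CPM at E18.5 (-6.71, SE 1.58, edgeR adjusted p = 0.0229). The ages did not overlap, which the rule for the 12 largest falls, Stra8 among them, required. The early libraries differed more than 10-fold among themselves. The fall was -4.17 without replicate 3, and the call was lost with the replicate block (edgeR adjusted p = 0.24) and without E18.5 replicate 2, 3 or 4 (highest 0.0669). Meioc, which stabilises the meiotic programme with YTHDC2, measured 3.04, 143 and 11.0 CPM and then 28.7, 22.8, 18.9 and 15.3 CPM. Its late libraries lay between the early extremes. For the meiotic cohesin Rec8 the values were 35.8, 124 and 51.0 CPM and then 34.5, 25.1, 31.6 and 29.9 CPM (-1.21, edgeR adjusted p = 0.0493, and 0.153 with the block and 0.0597 without replicate 3). In all, 7 of 21 genes of retinoic acid signalling and meiotic entry fell and 2 rose (14.5% and 15.8% of all genes). Their median was -0.76. The falls numbered 3, 2 and 2 without E18.5 replicates 2, 3 and 4, in turn. The rises were Aldh1a1, a retinoic acid synthesising enzyme, from 17.1 to 78.1 CPM up to 201 to 348 CPM, and the retinal reductase Dhrs3 (0.80).

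Structural genes of meiosis were mixed. Of 14 synaptonemal complex and axis genes, 3 rose (Sycp1, Sycp2 and Syce3) and 4 fell (Trip13, Syce2, Hormad2 and Stag3), with a median of 0.41. Without E13.5 replicate 3, 8 rose, 2 fell and the median was 1.50, and without E13.5 replicate 1 the median was -0.04. With the block 1 gene rose and 2 fell: the calls of Sycp1, Sycp2, Hormad2 and Stag3 were lost (edgeR adjusted p = 0.0502, 0.0812, 0.194 and 0.218). Sycp3, an axial element protein, measured 10.0, 102 and 27.0 CPM at E13.5 and 199, 388, 237 and 166 CPM at E18.5, with no overlap (2.42, SE 0.82, edgeR adjusted p = 0.072, and 3.72 with adjusted p = 0.0082 without replicate 3). Sycp1, the transverse filament, went from 4.76, 35.0 and 7.76 CPM to 101, 218, 134 and 110 CPM (3.13, edgeR adjusted p = 0.025). Of 33 recombination genes, 3 rose (Tex15, Mlh3 and Rnf212) and 4 fell, Mei4 and Rec114 among them, with a median of 0.19. Calls in either direction covered 21.2% of them, below the 30.2% of all genes. Without E13.5 replicate 3, 17 rose and 2 fell with a median of 1.41, and without E13.5 replicate 1, 2 rose and 7 fell with a median of -0.10. Mei4 was called neither with the block (edgeR adjusted p = 0.058) nor without replicate 3 (0.0714). Spo11, which cuts DNA to start recombination, measured 0.330, 5.52 and 0.914 CPM and then 13.7, 11.6, 9.73 and 6.32 CPM (2.16, edgeR adjusted p = 0.078, and 4.01 with adjusted p = 0.0015 without replicate 3). No gene of the 3 meiotic lists was called for the interaction (edgeR), so a difference from wild type, where 20 of the 33 recombination genes rose, was not shown.

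Among 25 germ cell RNA regulators there were 4 rises and 3 falls (5 with the block), near the shares of 15.8% and 14.5% of all genes. Their median was -0.32. It was 0.29 without E13.5 replicate 3, with 6 rises and 2 falls, and -0.65 without E13.5 replicate 1, with 4 rises and 7 falls. Ddx4, the germ cell helicase, measured 77.7, 238 and 160 CPM at E13.5 and 26.5, 42.0, 36.5 and 26.2 CPM at E18.5 (-2.27, SE 0.36, edgeR adjusted p = 0.0038). Dazl fell by 1.46 with overlapping ages, a call lost without E13.5 replicate 3 (edgeR adjusted p = 0.076) and without E13.5 replicate 4 or E18.5 replicate 3 or 4 (highest 0.0812). In the opposite direction Ybx2, which packages stored maternal RNA, rose by 3.50 and the piRNA helicase Tdrd9 by 3.21.

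**Figure D4:**
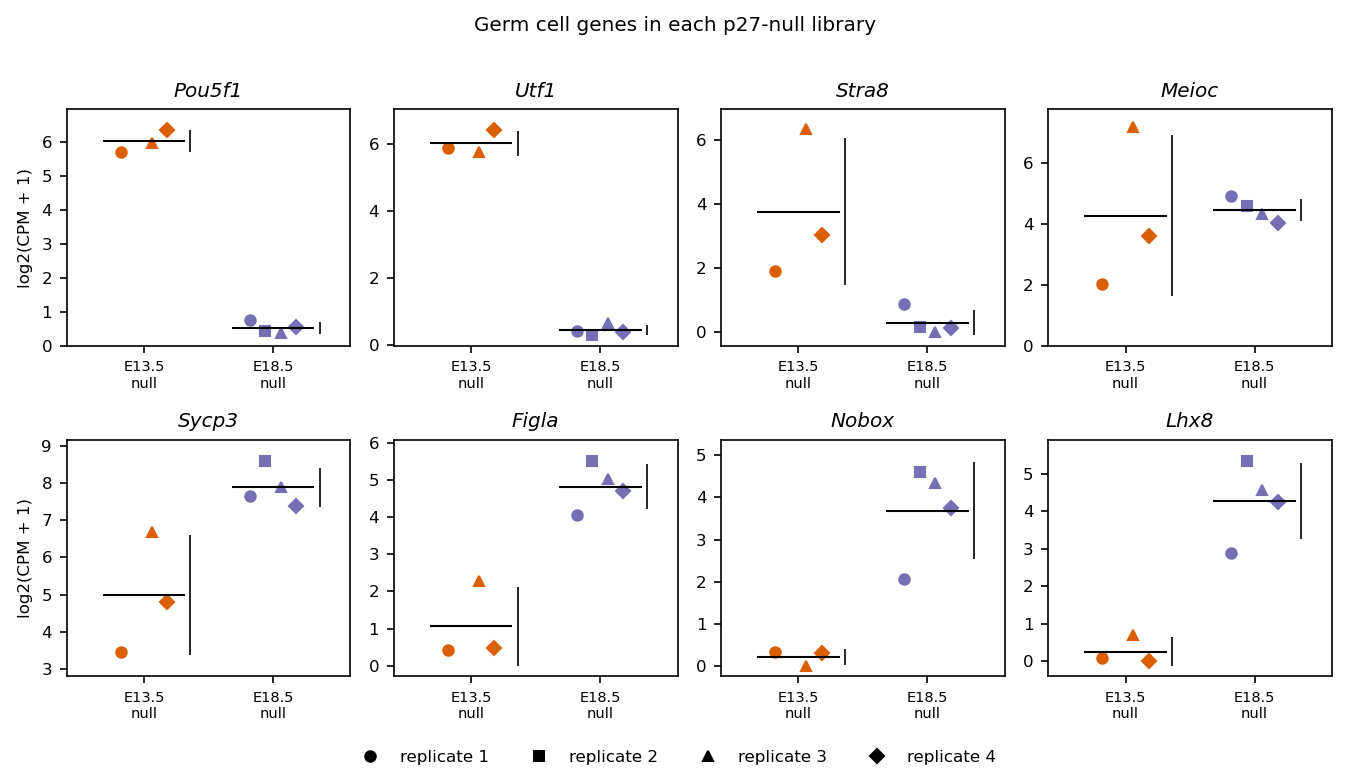
Level of 8 germ cell genes in each p27-null library as log2(CPM + 1), with symbols for replicate numbers, a horizontal line at the group mean and a vertical line of 1 SD to either side. Pou5f1 and Utf1 approach 0 at E18.5, E13.5 replicate 3 (triangle) is far above the other early libraries for Stra8, Meioc and Sycp3, and E18.5 replicate 1 (circle) is the lowest late library for Figla, Nobox and Lhx8.

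Transcription factors of the oocyte rose. Of 9 tested, 7 rose (15.8% of all genes rose), 1 fell and 1 was not called, with a median log2 fold change of 2.06. Nobox measured 0.264, 0 and 0.228 CPM at E13.5 and 3.16, 23.2, 19.4 and 12.4 CPM at E18.5 (6.58, SE 1.03, edgeR adjusted p = 0.0032). Lhx8, which with Nobox is required for primordial follicles, measured 0.066, 0.623 and 0 CPM and then 6.45, 39.2, 22.7 and 18.1 CPM (6.32, SE 1.03). Figla, the activator of zona pellucida genes, measured 0.330, 3.90 and 0.400 CPM and then 15.7, 44.6, 31.4 and 24.9 CPM (4.14, SE 0.88). Without E13.5 replicate 3 the estimates were 5.84 for Nobox, 9.16 for Lhx8 and 6.27 for Figla. All late libraries exceeded all early ones for these genes. The rule for the 12 largest rises, Nobox and Lhx8 among them, required this of that pair. E18.5 replicate 1 was the lowest late library for each gene. Sohlh1 rose by 2.06, while its partner Sohlh2 fell from 36.5 to 113 CPM down to 8.07 to 12.0 CPM (-2.93, edgeR adjusted p = 0.0010).

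Of 27 growth genes of the oocyte, 13 passed the count filter, the zona gene Zp2 through E18.5 alone. Of these 13, 5 rose and 3 fell, with a median of 0.80. The 5 include Zp2 and Nlrp4f, which were tested only with E18.5 replicates 2, 3 and 4 all kept. High E18.5 counts put them into the test, so their rises are no support for a rise of the list. The median was below 0 without E18.5 replicate 2, 3 or 4. In those fits Zp2 and Nlrp4f, which had risen, no longer passed the filter, so the set of genes changed as well. Without a library the rises numbered 2 to 6, with 2 without E18.5 replicate 2, 3 or 4, and the falls 0 to 3, with 0 without E13.5 replicate 4 and 1 without E13.5 replicate 3 or E18.5 replicate 1, 2 or 4. The falls were those of Padi6 (-1.90), Ooep (-0.87) and Khdc3 (-2.29), whose proteins lie beneath the oocyte's surface. None of them was called without E13.5 replicate 3 (edgeR adjusted p = 0.131, 0.0991 and 0.0552). With the block, Padi6 and Khdc3 were not called (edgeR adjusted p = 0.0768 and 0.0757). Gdf9, an oocyte growth factor, measured 1.12, 2.45 and 1.54 CPM at E13.5 and 4.78, 5.98, 4.74 and 4.98 CPM at E18.5 (1.58, edgeR adjusted p = 0.0064). Zp2 of the zona pellucida was at 0 in the 3 early libraries and at 0.132 to 1.65 CPM in the late ones. Its late mean, 0.974 CPM, was at least 4.88-fold above the floor of 3 counts in the shallowest early library (0.1996 CPM). The lowest late library was below that floor. Zp3 did not exceed 0.412 CPM. Ccnb3, a cyclin of oocyte meiosis and among the 12 largest rises of all genes, measured 0.264, 3.94 and 0.400 CPM and then 43.8, 58.6, 45.1 and 37.4 CPM (4.79, SE 0.81, edgeR adjusted p = 0.0058, and 7.07 without E13.5 replicate 3).

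Of 33 pregranulosa and gonadal somatic genes, 12 rose (15.8% of all genes rose) and 4 fell, with a median of 0.31. The rises numbered 8 without E18.5 replicate 2, 3 or 4. Foxl2, which maintains granulosa identity, measured 9.05, 18.1 and 10.0 CPM at E13.5 and 35.7, 50.3, 40.9 and 39.4 CPM at E18.5 (1.74, SE 0.25, edgeR adjusted p = 0.0014). Esr2, the oestrogen receptor beta, measured 0.661, 0.291 and 0.799 CPM and then 3.95, 7.96, 6.23 and 7.19 CPM (3.46, SE 0.44). Neither gene overlapped between ages. Runx1 rose by 1.44, Esr1 by 1.58, Kitl, the ligand of the oocyte receptor KIT, by 1.04, and Amhr2 by 0.74. The early gonad regulators Lhx9 (172, 226 and 256 CPM, then 61.3, 80.7, 73.6 and 73.4 CPM) and Cbx2 fell by 1.59 and 1.43, and Lef1, a nuclear effector of WNT signalling, by 2.07. The WNT ligand Wnt4 (0.33), the WNT enhancer Rspo1 (0.32) and the gonadal factors Nr5a1 (0.20), Gata4 (0.19) and Wt1 (-0.17) were not called.

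Among 20 steroidogenic genes 7 rose and 3 fell (15.8% and 14.5% of all genes), with a median of 0.15. Hsd3b1, which makes progesterone, measured 6.08, 42.1 and 32.1 CPM at E13.5 and 277, 361, 307 and 370 CPM at E18.5 (3.62, SE 0.61, edgeR adjusted p = 0.0067, and 0.053 with the block). Hsd17b1, which makes oestradiol, measured 0.397, 0.332 and 0.285 CPM and then 3.51, 5.87, 5.67 and 6.37 CPM (3.97, SE 0.37, edgeR adjusted p = 0.0002). Hsd17b7, an enzyme of sterol and oestradiol synthesis, rose by 1.07. Cyp11a1, the side-chain cleavage enzyme, rose by 2.21 and the luteinising hormone receptor Lhcgr by 3.14. Hsd3b6, a paralogue of Hsd3b1 with which it may share reads, went from 53.1, 5.77 and 26.0 CPM to 1.36, 0.113, 0.670 and 0.514 CPM (-5.36, SE 0.91). Of 7 testis cell markers 1 rose and 2 fell (1 with the block), and Dmrt1, which is also a germ cell gene in the fetal ovary, fell by 4.52.

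Of 37 stroma and matrix genes, 15 rose, 4 fell and 18 were not called, with a median of 0.52. Of all genes, 15.8% rose and 14.5% fell. Col6a1, a collagen VI chain, measured 219, 277 and 188 CPM at E13.5 and 571, 542, 619 and 650 CPM at E18.5 (1.39, SE 0.14, edgeR adjusted p = 0.00027). Bgn and Col6a2 rose by 1.39 and 1.17, Mgp by 2.09, Ogn by 2.10 and Col3a1 by 0.75, all of them genes of secreted matrix proteins. Hhip, an antagonist of hedgehog ligands, fell by 2.30, Gli2, a hedgehog effector, by 1.17, the WNT ligand Wnt5a by 0.90 and the growth factor receptor Pdgfra by 0.51. Gli2 was not called with the block (edgeR adjusted p = 0.101). The calls of Gli2, Wnt5a and Pdgfra were lost on leaving out any 1 of 5, 4 and 5 libraries, in turn (highest edgeR adjusted p = 0.0888, 0.108 and 0.109). The number of falls was 1 without E13.5 replicate 1 or E18.5 replicate 2, 3 or 4, and 6 without E13.5 replicate 3. Not called were the matrix genes Dcn (0.52), Lum (0.46) and Col1a1 (0.39) and the nuclear receptor gene Nr2f2 (-0.87). Of 13 surface epithelium genes 3 rose and 6 fell, with a median of -0.55: mesothelin (Msln) went from 0.228 to 0.925 CPM up to 3.49 to 6.28 CPM, while Lrrn4 fell by 2.06 and Cdh1, E-cadherin, by 2.45.

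Among 19 fetal growth and imprinted genes 9 fell (14.5% of all genes fell), 1 rose (2 with the block) and 9 were not called. The median was -0.65, and it was -0.26 without E13.5 replicate 1. Hmga2, a chromatin protein of fetal growth, measured 359, 85.4 and 159 CPM at E13.5 and 6.18, 5.47, 8.70 and 7.96 CPM at E18.5 (-4.83, SE 0.52, edgeR adjusted p = 0.0012). Igf2bp1, an RNA-binding protein of the same let-7 regulated group, fell by 3.75 and Igf2bp3 by 1.34. The noncoding H19 rose by 0.54, and Igf2 was not called (-0.37). Late levels were alike across the 4 libraries, and early ones were highest in replicate 1 for Hmga2 and Igf2bp1.

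**Figure D5:**
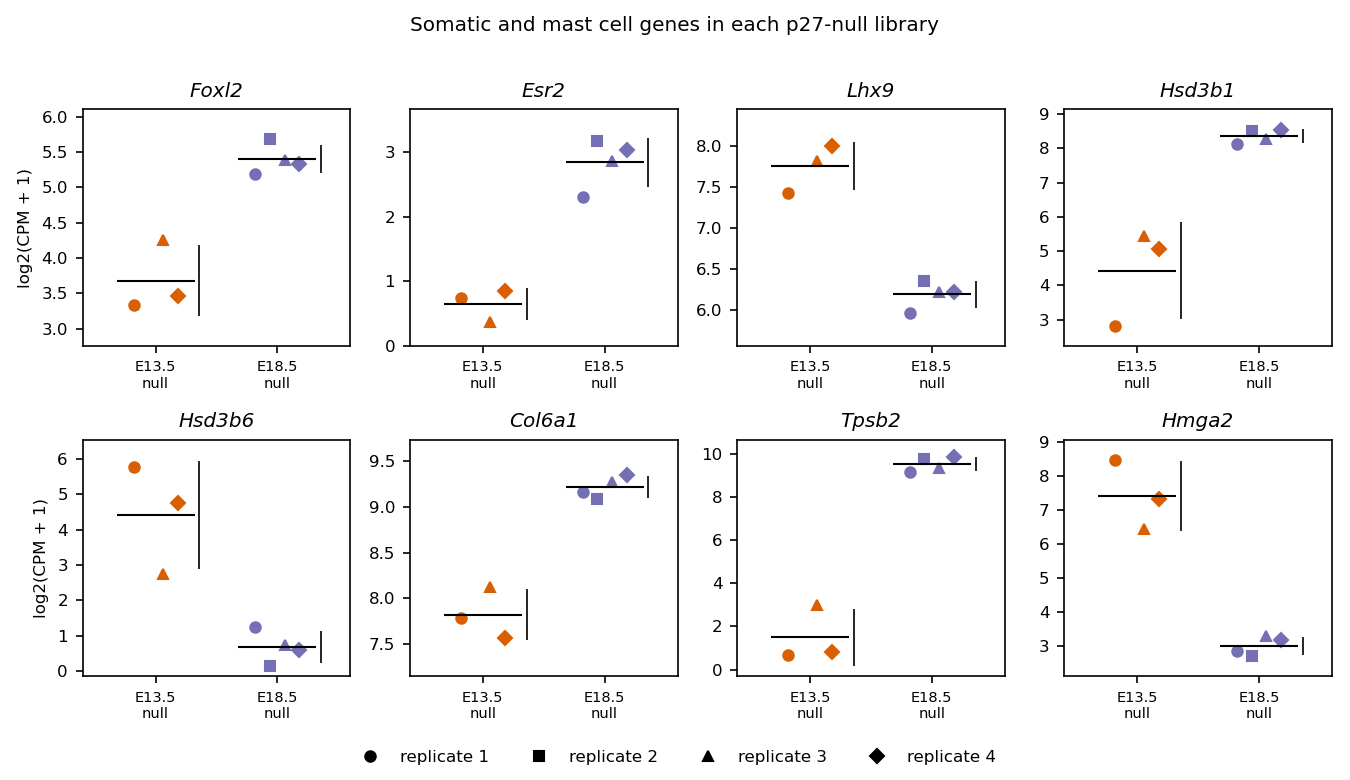
Level of 8 somatic, growth and mast cell genes in each p27-null library as log2(CPM + 1), with symbols for replicate numbers, a horizontal line at the group mean and a vertical line of 1 SD to either side. Foxl2, Esr2, Hsd3b1, Col6a1 and Tpsb2 are higher and Lhx9, Hsd3b6 and Hmga2 lower in every E18.5 library than in any E13.5 library.

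Genes of mast cells made up 5 of the 12 largest rises. Tpsab1, a mast cell tryptase, was at 0 in the 3 early libraries and at 12.1, 17.4, 15.5 and 15.9 CPM in the late ones. Its late mean was at least 76.3-fold above the floor of 3 counts in the shallowest early library. Its paralogue Tpsb2 measured 0.595, 6.97 and 0.742 CPM and then 560, 864, 650 and 916 CPM (7.96, SE 0.92, edgeR adjusted p = 0.0019). Because their sequences are close, how the reads divide between these tryptases is uncertain. The mast cell protease Cpa3 went from 16.9 to 44.4 CPM up to 528 to 730 CPM (4.56), the chymase Cma1 from 2.23 to 16.2 CPM up to 416 to 663 CPM (6.21, edgeR adjusted p = 0.0032, and 0.0661 with the block), and Mcpt4 from at most 0.042 CPM up to 12.1 to 20.8 CPM. Cd200r3, a receptor of mast cells and basophils, rose by 5.05. All early libraries were below all late ones for these genes, which the rule for the 12 largest rises required of all but Cpa3. E13.5 replicate 3 was the highest early library for Tpsb2, Cma1 and Cpa3. In the whole macrophage and immune list, which includes mast cell genes, 8 of 23 rose (15.8% of all genes rose) and none fell. Its median was 0.55, and its summed level was 242 to 301 CPM at E13.5 and 1858 to 2642 CPM at E18.5. The macrophage genes Adgre1 (-0.09), Csf1r (0.06) and C1qa (-0.10) were not called.

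The largest falls included embryonic haemoglobins. Hba-x measured 749, 106 and 535 CPM at E13.5 and at most 0.206 CPM at E18.5 (-12.47, SE 1.12, edgeR adjusted p = 0.00087), and Hbb-y went from 397 to 2158 CPM down to 0.219 to 0.925 CPM. These were 2 of the 3 falls among 12 erythroid genes, none of which rose (1 with the block), and the third was Hbb-bh1. The adult gene Hba-a1 spread from 409 to 5551 CPM within E18.5, with replicates 1 and 3 high and replicates 2 and 4 low. Cdx2, a homeobox factor, was at 6.61, 20.8 and 10.3 CPM in the early libraries and at 0 in all late ones. Its early mean was at least 73.8-fold above the floor of 3 counts in the shallowest late library. The homeobox gene Rhox9 fell by 6.83 and the autophagy receptor gene Calcoco2 by 8.38. Prg2, an eosinophil granule protein, measured 52.7, 17.9 and 114 CPM and then 0.088, 0, 0 and 0.154 CPM (-9.80), and in wild type it was at 0 in 2 of 4 early libraries and at 48.8 CPM in 1 late one. Outside the mast cell and oocyte groups, the largest rises included Gpr141b, Chodl and Dpt. The orphan receptor gene Gpr141b was at 0 in all early libraries and at 8.50 to 14.0 CPM later. Its late mean was at least 54.1-fold above the floor. The lectin gene Chodl rose by 4.66 and the matrix gene Dpt by 4.97. Dpt went from 0.228 to 0.913 CPM up to 42.6 CPM in E18.5 replicate 1. It reached 5.42 to 8.06 CPM in the other late libraries. The Dpt call was lost without E13.5 replicate 1 or 4 (highest edgeR adjusted p = 0.0632).

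Markers of neighbouring tissues varied between libraries. Of 9 mesonephros and duct genes tested, 2 fell (7 with the block) and none rose, with a median of -2.51 (-0.85 without E13.5 replicate 1), and the summed level ran from 88.7 to 312 CPM at E13.5 and from 52.5 to 90.5 CPM at E18.5. The duct gene Cdh16 measured 86.0, 21.9 and 0.971 CPM and then 22.4, 0, 2.27 and 0.822 CPM, so the ages overlapped. Among those called with the block, Pax2, Pax8, Lhx1 and Cdh16 were lower (edgeR adjusted p = 0.0057, 0.0033, 0.0019 and 0.044). Of 10 neural crest and chromaffin genes 1 rose and 3 fell, and Th, Dbh and Sox10 stayed below 1 CPM in all 7 null libraries. The mean log2 CPM of this list was 0.99 to 1.20 in the E13.5 null libraries and 2.32 to 5.40 in the E13.5 wild-type ones. Of 3 adrenal genes tested 1 rose (with the block, 1 also fell), and Cyp11b1 and Cyp21a1 did not exceed 0.397 CPM. Among 16 endothelial genes 1 rose (none with the block) and 2 fell, and without E13.5 replicate 3 none rose and 4 fell. The part of these cells in the results above was not tested.

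For signalling and survival lists the counts were near those of all genes. Of 14 Notch genes 2 rose (1 with the block) and 3 fell, with Hes1, a Notch target, up by 0.92 and Hey1 down by 0.87. Of 20 cell death and DNA damage genes 1 rose and 4 fell (1 with the block). Among those falls was Trp53, from 109 to 139 CPM down to 86.8 to 106 CPM (-0.40, edgeR adjusted p = 0.026, and 0.0807 with the block).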

How the data were processed

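Gene-level counts for 29 ovary samples were used; comparisons used 7 null and 8 wild-type embryonic libraries. Ovaries went through papain dissociation before RNA isolation, per the labels' protocols. The deposited values are RSEM expected counts, estimated reads that need not be whole. The authors used Trim Galore, STAR 2.5.2, RSEM 1.3.0 and FastQC 0.11.5, per the submitters' processing notes; genome build, annotation release, library kit and strandedness are not given in the sources used here, so overlapping, antisense and near-identical genes are uncertain. Symbols matched for 51633 of 51912 gene IDs. Positions are GRCm38 (GENCODE M21).

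Counts were rounded, filtered (edgeR filterByExpr, minimum count 10, total 15), scaled by TMM and tested with the robust quasi-likelihood F test of edgeR 4.0.16 (R 4.3.3), each genotype alone, with Benjamini-Hochberg adjustment at 0.05. The interaction used all 15 libraries. The standard error is the log2 fold change divided by the square root of F. List levels are mean log2 CPM with a prior count of 2. The fit was tested on simulated counts: in the age comparison, 57% of genes changed by 1 log2 unit and 89% of those changed by 2 were recovered, and in the interaction 30% and 79%. The 26 lists hold 601 matched genes. Lists, naming rule and tests were chosen with earlier results of these data known.

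Named were Cdkn1b, marker genes of each list whatever their call, up to 4 called genes per list and direction, the 12 largest rises and falls (mean CPM of at least 5, groups not overlapping), and the 12 smallest interaction p-values. Genes named only in the closing observations fall outside this rule, and some genes it covers are not reported here. Same-numbered null libraries of both ages deviated together (correlation of deviations 0.231, 0.132 and 0.205 for numbers 1, 3 and 4). The main fits had no block, so their p-values ignore any such pairing. A fit with the number as a block is given beside them where it ends a call. No label gives a sequencing batch. Replicate pairs differed by more than sampling noise (chi-square per degree of freedom 14.1 to 70.7). Alternatives were DESeq2 1.42.0, limma 3.58.1 (voom, sample weights), other scalings, no filter, thinned counts, all 8 groups together, removed haemoglobin genes, the replicate block and leaving out each library.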

Additional observations from a re-analysis of the deposited data

Results flagged for a closer look

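A test of the difference between the genotypes' age changes called 76 genes, of which the 12 with the smallest p under the naming rule are given here. The age change of the null ovary exceeded that of wild type by 1.57 (log2) for Cdc20, 1.41 for Racgap1, 1.3 for Chaf1b, 1.47 for Prc1, 1.49 for Cdt1, 1.22 for Mcm3, 1.53 for Plk1, 1.43 for Top2a, 1.20 for Exo1, 1.81 for Cdc6, 0.93 for Shmt1 and 1.10 for Mcm7, with edgeR quasi-likelihood adjusted p from 0.00023 to 0.0069. In all 12 the null ovary ended higher. All but Shmt1, an enzyme of one-carbon metabolism, belong to the mitosis or DNA replication list.

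In E18.5 null replicate 1 the mean log2 CPM of the endothelium list, 4.20, was far from the 3 other libraries of the group (4.43 to 4.47). This was 1 of 29 values examined in this way, and chance flags about 1 in 20.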

How the results depend on the processing

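The number of genes changed from E13.5 to E18.5 in null ovary stayed within 1.5 times of 5018 in all 16 alternatives, from 4430 (limma-voom) to 5935 (DESeq2) with all libraries and no block, and from 3355 to 4747 with a library left out. The replicate block gave 3877 calls, 3611 of them shared, and 37 falls of mitosis and DNA replication genes against 52, where leaving out a library gave 35 to 59. The wild-type count ranged from 4446 to 6510 on leaving out a library. The interaction count of 76 was 302 by DESeq2, 160 by limma-voom, 133 with all 8 groups in the fit and 60 with the block, 32 to 127 with a library left out, and 17 without both E13.5 replicates 3. Of these, the mitosis and DNA replication genes numbered 47, and 88, 73, 59, 40, 26 to 72, and 13 under the same alternatives. The last alternative was chosen after seeing the data, as was removing germ cell and haemoglobin genes (85 and 52 calls). The cause of these differences was not tested. Of 177 called genes that the naming rule covers, 31 lost their call with the block, among them every such gene noted above. No called gene that the naming rule covers changed direction in any alternative. Medians of 10 lists changed sign in at least 1 alternative. That of germ cell RNA regulators (-0.32) became 0.29 without E13.5 null replicate 3, and those of synaptonemal complex (0.41) and recombination genes (0.19) became -0.04 and -0.10 without E13.5 null replicate 1. That of oocyte growth genes (0.80) was below 0 without E18.5 null replicate 2, 3 or 4, where Zp2 and Nlrp4f were no longer tested. That of erythroid genes (0.62) was -0.57 by limma-voom and below 0 without E18.5 null replicate 1 or 3. The others, G1/S regulators, CDK inhibitors, testis, endothelium and adrenal cortex genes, had medians between -0.14 and 0.18. Depth limits statements on genes near 0.2 CPM.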

Other observations

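Of the 76 genes whose age change differed between genotypes, 29 were in no list, and the following were chosen after their values were seen. Among them Stmn1, a regulator of microtubules, measured 992 to 1153 CPM in the null ovary at E13.5 and 1032 to 1143 CPM at E18.5, against 886 to 1075 and 448 to 588 CPM in wild type (difference 0.98, edgeR quasi-likelihood adjusted p = 0.0081). Msh6, a mismatch repair gene, fell in the null ovary by 0.83 and in wild type by 1.66.

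A smaller set rose more in the null ovary. Slfn9, a member of the Schlafen family, measured 28.8, 24.0 and 24.7 CPM at E13.5 and 45.9, 46.9, 58.4 and 53.7 CPM at E18.5 in the null ovary (0.99), and 17.8 to 25.0 and then 9.92 to 18.5 CPM in wild type (-0.77, difference edgeR adjusted p = 0.0069). Tnni3, a troponin gene, went from 9.58 to 16.4 CPM up to 59.0 to 73.9 CPM in the null ovary, and from 6.00 to 14.1 CPM to 15.6 to 18.9 CPM in wild type. Bche, butyrylcholinesterase, went from 6.52 to 8.56 CPM up to 23.2 to 29.3 CPM, and from 7.98 to 15.2 CPM to 12.9 to 15.0 CPM in wild type. The late null libraries of all 3 genes lay above every other embryonic library. In the opposite direction were Pdcd4, an inhibitor of translation, which fell in the null ovary (-0.62) and rose in wild type (0.59, difference -1.22, edgeR adjusted p = 0.0295), and the predicted gene Gm14681 (difference -1.96).

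Only 5 genes were called in both genotypes with opposite signs, namely Pdcd4, Slfn9, Cep55, Rec8 and Tubb2a, and for the last pair the difference itself was not called (edgeR adjusted p = 0.0776 and 0.0831). Tubb2a has a close paralogue, so its reads are uncertain.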
